A study of Mus musculus with 6 samples.

Results

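The genes described here are 31 genes of protein folding, quality control and stress sensing in the endoplasmic reticulum (ER), chosen by symbol from known function among the 24421 rows of a gene count table. The choice was made with earlier results of these data known, so shares of these genes set beside all tested genes are descriptions only. All 31 were found, and all 31 were among the 11805 genes with enough counts to test. They comprise 16 folding factors, 4 genes of stress sensing, 7 genes of ER-associated degradation (ERAD) and 4 genes of the translocon.

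The counts come from group 2 innate lymphoid cells (ILC2), lymphocytes that lack antigen receptors and are known for secreting type 2 cytokines. They were taken from brain tissue of the inbred strain C57BL/6 by cell sorting on surface markers and then kept for 2 weeks in a medium holding 20% fetal calf serum, stem cell factor and the cytokines IL-33, IL-2 and IL-7. Young mice were 2 to 3 months old and aged mice 20 to 22 months old, with 3 libraries per age and no other treatment named. All 6 libraries therefore carry the effect of culture in these cytokines, and no uncultured cells were compared. Whether the 3 libraries of an age stand for separate mice, pools or cultures is not stated in the labels, so the p-values measure only the spread between these libraries, which may be technical.

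Secreted and membrane proteins enter the ER through the Sec61 channel, where the chaperone BiP (Hspa5), its J-domain partners, lectin chaperones, disulfide isomerases and prolyl isomerases fold them. Proteins that fail to fold are passed back to the cytosol by a membrane complex around the ubiquitin ligase HRD1 (Syvn1) and its partner Sel1l. When folding lags, the sensors IRE1 (Ern1), PERK (Eif2ak3) and ATF6 start the unfolded protein response, which raises chaperone and ERAD genes, partly through the factor XBP1. Lymphocytes that secrete large amounts of protein are known to rely on this system.

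Library totals lay between 16477157 and 20804291 counts, and replicates differed by far more than counting noise. Levels are given as CPM, a gene's counts scaled to a common library size set by the trimmed mean of M values (TMM). Changes are log2 changes of aged over young from the quasi-likelihood test of edgeR, with p-values adjusted by Benjamini-Hochberg over all tested genes and a threshold of 0.05. The ILC2 genes Gata3, Rora and Il1rl1 were present at means of 141.7 to 488.2 CPM in both groups, whereas Kit averaged 2.64 CPM in the young libraries and had 0 counts in the aged ones. Of 13 tested genes in a list of 14 ILC2 genes, 5 were lower in aged libraries (Gata3, Il1rl1, Klrg1, Il5 and Il2ra), 2 were higher (Thy1 and Id2) and 6, Rora among them, did not pass in edgeR, with a median log2 change of -0.12. In bulk RNA, fewer cells that express a gene and less of its RNA per cell cannot be told apart.

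Of the 31 genes, 10 were higher in aged libraries (32.3%, against 11.2% of all tested genes) and 2 were lower (6.45%, against 8.14%). Those that rose were Sdf2l1, Fkbp2, Ppib, Manf, Pdia6, Xbp1, Derl2, Sec61b, Sec61g and Ssr1, and those that fell were Ern1 and Sel1l. The 3 young and the 3 aged libraries did not overlap for 17 of the 31 genes (54.8%, against 38.2% of all tested genes). The median log2 change was 0.21 over the 31 genes and -0.10 over all tested genes. By role the medians were 0.07 for folding factors, 0.36 for the sensing genes, 0.10 for ERAD genes and 0.93 for translocon genes.

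**Figure D1:**
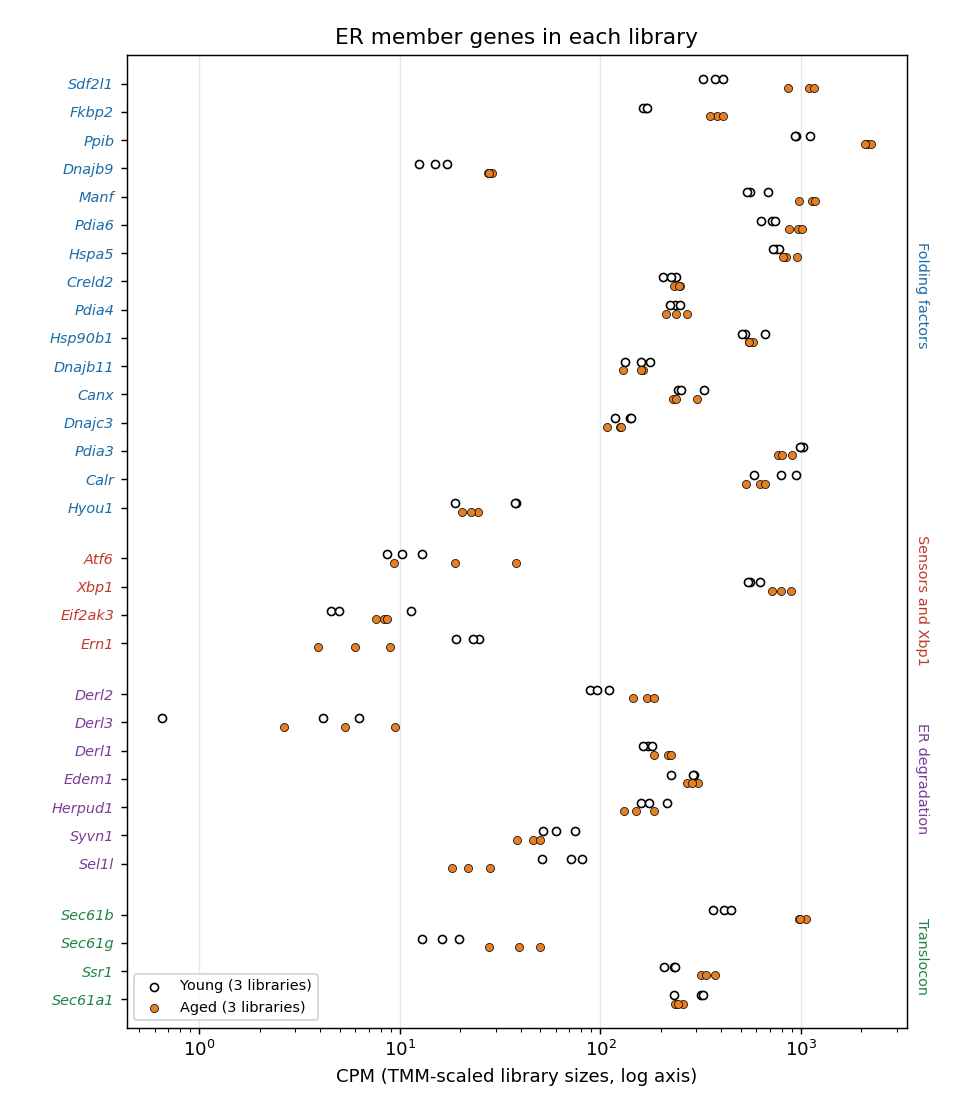
CPM of each gene in every library on a log axis (open circles, 3 young libraries; filled circles, 3 aged libraries), grouped by role. The aged libraries of Sdf2l1 (860.3 to 1156 CPM) lie above its young libraries (326.1 to 410.8 CPM), while those of Sel1l lie below.

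**Figure D2:**
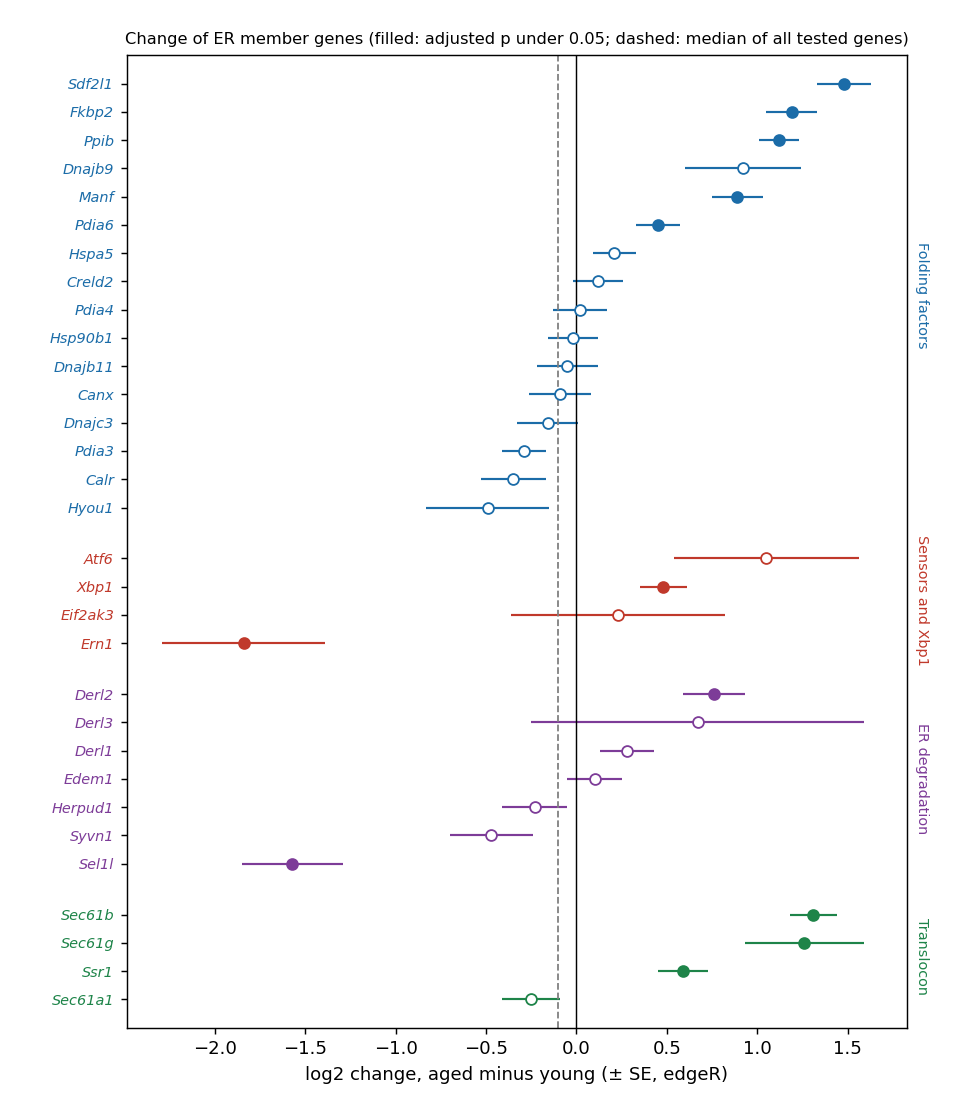
Fitted log2 change of each gene, aged minus young, with its standard error as a horizontal bar; filled symbols passed an adjusted p of 0.05, and the dashed line is the median of all tested genes at -0.10. The values run from -1.84 for Ern1 to 1.48 for Sdf2l1.

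Among the HSP70 and HSP90 chaperones and their partners, the main chaperones did not pass the test, and 1 partner rose. Hspa5, the ER HSP70 and central target of the unfolded protein response, was at 747.0, 778.5 and 728.4 CPM in young libraries 1 to 3 and at 956.4, 839.9 and 815.4 CPM in the aged libraries 1 to 3. The aged libraries lay above the young ones by a small margin, and the log2 change of 0.21 ± 0.12 (SE, n = 3 each) did not pass (edgeR adjusted p = 0.258). Hsp90b1, the ER HSP90, had overlapping groups, at 525.3, 510.3 and 662.0 CPM in the young and 550.0, 579.8 and 548.3 CPM in the aged libraries, with a log2 change of -0.02 ± 0.14 (SE). Exons of Hsp90b1 overlap an opposite-strand pseudogene, 1810014B01Rik, over 15.7% of their length, which leaves its counts uncertain where strand was not used.

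Sdf2l1, a BiP-associated protein that supports the chaperone cycle, showed the largest rise of the 31 genes. It was at 374.7, 410.8 and 326.1 CPM in young libraries 1 to 3 and at 1093, 1156 and 860.3 CPM in the aged libraries 1 to 3. Every aged library exceeded every young library more than any of them differed within a group. The change was 2.80-fold, or 1.48 ± 0.15 on the log2 scale (SE, n = 3 each; edgeR adjusted p = 8.87e-05). Per library, the ratio of Sdf2l1 to Hspa5 counts, which library scaling does not affect, was 0.502, 0.528 and 0.448 in young and 1.14, 1.38 and 1.06 in aged libraries. Sdf2l1 counts were thus below those of Hspa5 in each young library and above them in each aged library. The ratio sets a transcript of 1108 bases against one of 3672 bases, and with length and GC content fitted out the log2 changes were 0.69 for Sdf2l1 and 0.44 for Hspa5.

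The other J-domain and HSP70 genes did not pass. Dnajb9 (ERdj4), a BiP co-chaperone that also restrains IRE1, was at 12.4, 14.9 and 17.2 CPM in the young and 27.6, 28.9 and 27.7 CPM in the aged libraries. Its groups did not overlap, but the log2 change of 0.92 ± 0.32 (SE, n = 3 each) had an adjusted p of 0.0673 in edgeR, and DESeq2 gave 0.043. Dnajb11, Dnajc3 and Hyou1, partners and a nucleotide exchange factor of BiP, had overlapping groups and log2 changes of -0.05, -0.16 and -0.49. Hyou1 split the young libraries, with 38.0 and 37.7 CPM in libraries 1 and 2 and 18.9 CPM in library 3.

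Disulfide isomerases moved apart from each other. Pdia6, an isomerase that also acts on IRE1 signalling, was at 628.4, 714.8 and 739.6 CPM in the young and 870.7, 962.4 and 1011 CPM in the aged libraries, and it rose by 0.45 ± 0.12 on the log2 scale (SE, n = 3 each; edgeR adjusted p = 0.0265). Pdia3, the isomerase that works with calnexin and calreticulin, lay the other way, at 1004, 1024 and 993.5 CPM in the young and 765.6, 803.3 and 899.2 CPM in the aged libraries. Its groups did not overlap, yet the log2 change of -0.29 ± 0.12 did not pass (adjusted p = 0.107). Within libraries, the ratio of Pdia6 to Pdia3 counts was 0.626 to 0.744 in young and 1.12 to 1.2 in aged libraries. Pdia4 and Creld2, further thioredoxin-fold or isomerase-associated proteins, overlapped between groups, with log2 changes of 0.02 and 0.12. Pdia6 no longer passed when young library 1 was left out (adjusted p = 0.151), aged library 2 (0.0888) or aged library 3 (0.0667).

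Of the lectin chaperones, which hold glycoproteins during folding, neither passed. Calr (calreticulin) was at 793.9, 946.4 and 580.0 CPM in the young and 626.5, 659.8 and 529.3 CPM in the aged libraries. Young library 3 lay among the aged libraries, and the log2 change was -0.35 ± 0.18 (SE; edgeR adjusted p = 0.198), or -0.49 with an adjusted p of 0.0361 when that library was left out. Canx (calnexin) had a log2 change of -0.09 ± 0.17.

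Both prolyl isomerases rose. Ppib (cyclophilin B), which speeds proline turns in newly made proteins, went from 949.5, 929.3 and 1107 CPM in young to 2146, 2243 and 2097 CPM in the aged libraries, a 2.17-fold change (1.12 ± 0.11 on the log2 scale, SE, n = 3 each; edgeR adjusted p = 8.94e-05). Fkbp2, an FK506-binding isomerase of the ER, went from 169.1, 162.1 and 171.5 to 382.4, 408.7 and 353.3 CPM, a 2.28-fold change. In both genes the lowest aged library exceeded the highest young one by more than the range within either group. The Ppib counts are uncertain, because exons of the neighbouring gene Snx22 cover 25.0% of its exons on the opposite strand. Snx22 counts were 0.590 to 0.622 of Ppib counts in all 6 libraries, and Snx22 had a log2 change of 1.1 beside the 1.12 of Ppib.

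Manf, a small ER protein that binds BiP and is secreted under stress, also rose. It was at 558.8, 538.2 and 686.5 CPM in the young and 974.9, 1141 and 1181 CPM in the aged libraries, with a log2 change of 0.89 ± 0.14 (SE, n = 3 each; edgeR adjusted p = 0.0012). Its ratio to Hspa5 was 0.691 to 0.943 in young and 1.02 to 1.45 in aged libraries. Folding factors thus included 5 that rose and none that fell at this threshold. Of the 11 others, 4 had fitted values above 0 and 7 below.

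**Figure D3:**
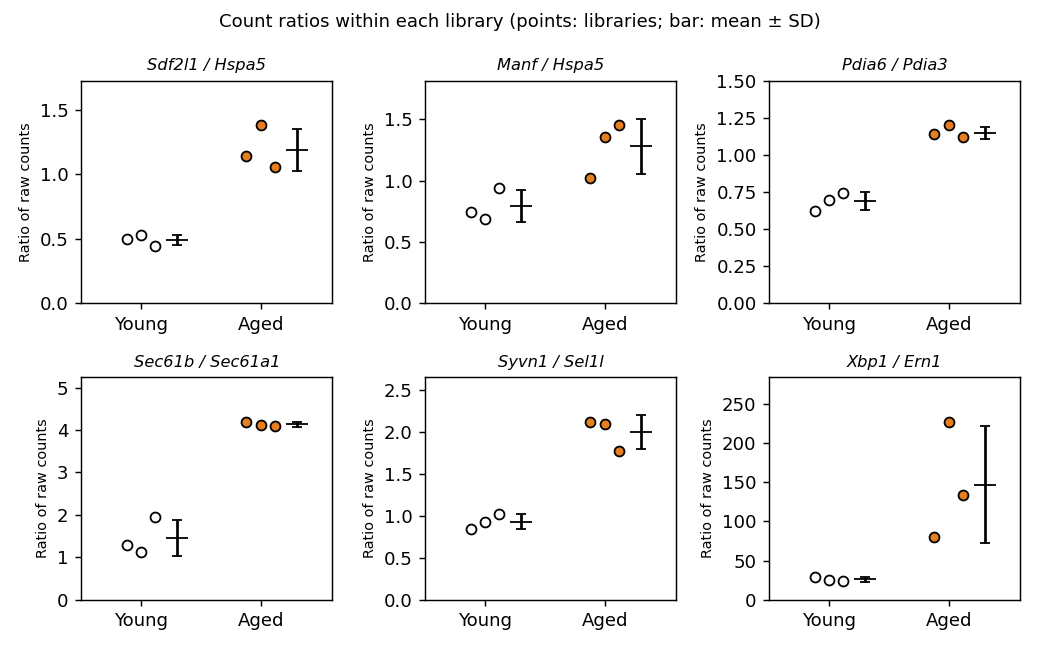
Ratios of raw counts of gene pairs within each library (points, libraries; bar, mean ± SD of 3 libraries; axes start at 0), which do not depend on library scaling but do carry differences in transcript length. The ratio of Sec61b to Sec61a1 is 1.12 to 1.94 in young and 4.09 to 4.19 in aged libraries, and that of Syvn1 to Sel1l is 0.839 to 1.02 in young and 1.77 to 2.12 in aged libraries.

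The sensing genes did not move together. Ern1, which encodes the sensor IRE1, fell the most of the 31 genes, from 19.1, 24.9 and 23.2 CPM in young to 8.88, 3.91 and 5.98 CPM in the aged libraries. The highest aged library was below the lowest young one by more than the young libraries differed among themselves. The log2 change was -1.84 ± 0.45 (SE, n = 3 each; edgeR adjusted p = 0.0148), and it did not pass once young library 2 was left out (log2 change of -1.74, adjusted p = 0.0632).

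Xbp1, whose transcript IRE1 splices to give the active factor, was far more abundant and rose. It was at 557.1, 621.3 and 542.5 CPM in the young and 715.3, 888.9 and 797.9 CPM in the aged libraries, a log2 change of 0.48 ± 0.13 (SE, n = 3 each; edgeR adjusted p = 0.0244). Gene counts do not separate the spliced from the unspliced form, so no splicing level can be given. Leaving out young library 1 (adjusted p = 0.106) or aged library 2 (0.113) left Xbp1 short of the threshold. Per library, the ratio of Xbp1 to Ern1 counts was 23.4 to 29.2 in young and 80.5 to 227.0 in aged libraries.

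Atf6, the sensor that is cut in the Golgi to release a transcription factor, was low and uneven, at 12.9, 8.60 and 10.2 CPM in the young and 18.8, 9.30 and 37.8 CPM in the aged libraries. Aged library 3 stood above the rest and aged library 2 fell within the young range, so the log2 change of 1.05 ± 0.51 (SE) did not pass, and it was 0.41 without aged library 3. Eif2ak3, which encodes PERK, was at 4.54, 4.97 and 11.3 CPM in the young and 8.29, 8.63 and 7.56 CPM in the aged libraries, with overlapping groups and a log2 change of 0.23 ± 0.59.

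ERAD genes also split, and the HRD1 partner gene fell the most of them. Sel1l, the adaptor that holds the HRD1 complex together, was at 71.2, 80.7 and 50.9 CPM in the young and 21.8, 18.2 and 28.3 CPM in the aged libraries. The groups were well apart, and the change was 2.97-fold lower in aged (log2 change of -1.57 ± 0.28, SE, n = 3 each; edgeR adjusted p = 0.00254). Syvn1, the ubiquitin ligase HRD1 itself, was at 59.8, 74.8 and 51.7 CPM in the young and 46.3, 38.2 and 50.02 CPM in the aged libraries. Its groups nearly touched, and the log2 change of -0.47 ± 0.23 did not pass (adjusted p = 0.196).

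The derlins, membrane proteins of the exit channel, differed in level and in change. Derl2 rose from 110.1, 88.3 and 96.3 to 170.2, 184.8 and 144.7 CPM, by 0.76 ± 0.17 on the log2 scale (SE, n = 3 each; edgeR adjusted p = 0.0106), and missed the threshold without aged library 2 (0.0518). Derl1 had a log2 change of 0.28 ± 0.15 with groups that did not overlap, at 162.1 to 181.5 CPM in the young and 185.3 to 225.6 CPM in the aged libraries. Derl3 was low and scattered, from 0.652 to 6.21 CPM in the young and from 2.65 to 9.47 CPM in the aged libraries. Herpud1, an HRD1 cofactor induced by ER stress, and Edem1, which marks glycoproteins for disposal, overlapped between groups with log2 changes of -0.23 ± 0.18 and 0.10 ± 0.15.

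Among the translocon genes 3 rose and 1 did not pass. Sec61b, the small beta subunit of the channel, went from 411.7, 364.3 and 449.1 CPM in young to 980.9, 1065 and 990.8 CPM in the aged libraries, and Sec61g, the gamma subunit, from 19.7, 12.9 and 16.2 to 27.9, 39.3 and 49.8 CPM. Their log2 changes were 1.31 ± 0.13 and 1.26 ± 0.33 (SE, n = 3 each; edgeR adjusted p = 6.79e-05 and 0.020). Sec61a1, the subunit that forms the pore, went the other way without passing, at 317.1, 325.7 and 232.0 CPM in the young and 234.2, 258.4 and 242.5 CPM in the aged libraries (log2 change of -0.25 ± 0.16). The subunits of the channel thus kept different ratios in the 2 groups, with Sec61b at 1.12 to 1.94 times Sec61a1 counts in young and 4.09 to 4.19 times in aged libraries. Their longest transcripts have 564 and 3172 bases, and with length and GC content fitted out the log2 changes were 0.33 for Sec61b and -0.20 for Sec61a1.

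Ssr1, a subunit of the translocon-associated protein complex, rose by 0.59 ± 0.14 on the log2 scale, from 206.7, 233.2 and 236.2 to 370.7, 315.7 and 334.3 CPM (SE, n = 3 each; edgeR adjusted p = 0.0124). Ssr1 did not pass with young library 1 (adjusted p = 0.0777) or aged library 1 (0.053) left out. Sec61g did not pass with young library 2 (0.0679), aged library 2 (0.053) or aged library 3 (0.0737) left out. Of the 75-base windows in the longest transcript, 23.9% of those of Sec61b and 19.4% of those of Sec61g also occur in transcripts of other genes (Gm10320 and, for Sec61g, the processed pseudogene Gm10177, share the most), so their counts depend on how shared reads were assigned.

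Set beside each other as the roles allow, the folding factors had a median log2 change of 0.07 and the 11 genes of sensing and ERAD one of 0.23, with 5 that rose and none that fell among the 16, and 2 that rose and 2 that fell among the 11. As shares of the raw library totals, folding factors took 0.807 ± 0.027% of a young library and 0.825 ± 0.002% of an aged library (SD, n = 3 each), and the sensing and ERAD genes took 0.170 ± 0.018% and 0.15 ± 0.004%. On the TMM scale used elsewhere the folding sum was 6990 ± 178 CPM in young and 9546 ± 249 CPM in aged, and the sensing and ERAD sum was 1469 ± 120 and 1730 ± 62.4 CPM, so the direction of the latter turned with the scaling. Within libraries the folding sum was 4.63, 4.47 and 5.24 times the sum of the other 11 genes in young and 5.68, 5.47 and 5.41 times in aged libraries. With Ppib included, the aged ratios all lay above the young ones, by a factor of 1.15 in the means. The counts of Ppib are uncertain and rose 2.17-fold. With the Ppib counts left out of the folding sum, the ratios of young and aged libraries overlap. The separation is therefore not shown for the other folding factors. Median transcript length was 2430 bases in the folding factors and 3666 bases in the other 11 genes, so the ratio also carries length. Within the folding factors, the prolyl isomerases went from 0.134 ± 0.008% to 0.220 ± 0.003% of raw totals, or from 1163 ± 101 to 2543 ± 102 CPM. The lectin chaperones were at 0.121 ± 0.020% and 0.075 ± 0.007% of raw totals, or at 1049 ± 145 and 863.1 ± 84.3 CPM, with neither gene past the test.

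Levels per length, in CPM per kilobase of the longest annotated transcript, spanned a wide range. In young libraries Ppib (1120) and Sec61b (724.0) led, and Pdia3, Calr, Sdf2l1 and Pdia6 followed between 364.0 and 319.0, which Calr alone spanned over its 3 libraries (266.0 to 433.0). In aged libraries Sdf2l1 had moved from the fifth to the third place (935.0) and Pdia3 from the third to the seventh (297.0). The 3 sensors were the lowest of the 31 genes in young libraries apart from Derl3, with Ern1 at 3.22, Eif2ak3 at 1.54 and Atf6 at 1.46 CPM per kilobase.

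The promoters of some of these genes hold sequence elements that were not read when the genes were chosen. The genes were chosen for known roles in ER folding and stress. Shares of ER stress elements among them are therefore not independent of that choice. The ER stress response element (ERSE, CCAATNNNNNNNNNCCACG) is bound by NF-Y and ATF6 or XBP1. RefSeq promoters of build GRCm38.p6, from 250 bases before to 50 bases after the start, were found for 26 of the 31 genes (none for Manf, Hyou1, Atf6, Derl1 and Sec61a1) and searched on both strands. An exact ERSE was present for 9 of these 26 genes (34.6%), against 0.144% of the 9013 tested genes with a promoter and 0.119% of all 32851 promoters. Of the matched folding factors 7 of 14 held it, and of the ERAD genes 2 of 6. The compact ERSE-II (ATTGG, 1 free base and CCACG) was present for Dnajb11 and Herpud1 (7.69%), against 0.0888% of those tested genes and 0.0365% of all promoters. The elements are shown because the genes that hold them are not those that changed most; each is written 5′ to 3′ on its own strand, with the fixed ends in capitals.
Hspa5: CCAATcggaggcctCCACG
Hsp90b1, nearer the start: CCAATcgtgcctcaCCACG
Hsp90b1, farther from the start: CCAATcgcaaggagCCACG
Calr: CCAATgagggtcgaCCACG
Canx: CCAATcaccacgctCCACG
Pdia6: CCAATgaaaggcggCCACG
Creld2: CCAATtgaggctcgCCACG
Dnajc3: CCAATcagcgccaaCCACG
Syvn1: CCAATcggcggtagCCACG
Derl3: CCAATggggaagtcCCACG
Herpud1, ERSE-II: ATTGGgCCACG
Dnajb11, ERSE-II: ATTGGcCCACG

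The Hspa5 element lies 65 to 47 bases before the RefSeq start, at chr2:34772025-34772043 on the plus strand, and the Calr element 162 to 144 bases before it, at chr8:84847075-84847093, on the strand opposite to the gene's strand. Of the 9 genes with an ERSE, 1 rose (Pdia6) and none fell, with a median log2 change of -0.02 and a range from -0.47 to 0.67. Of the 17 matched genes without an exact ERSE, 8 rose and 2 fell, with a median of 0.48 and a range from -1.84 to 1.48. Over all tested genes, 11.2% were higher and 8.14% lower. The median transcript length was 2825 bases in genes with an ERSE and 2461 bases in those without. Of the 8 that rose, Sdf2l1, Ppib, Fkbp2 and Sec61b lie in the shortest of 5 equal length groups, where 31.1% of all genes were higher. Creld2 and Derl3, which hold an ERSE, lie there too. With length and GC content fitted out, Hspa5 (0.44) and Pdia6 (0.36) passed as higher and Creld2 (-0.48) as lower among genes with an ERSE. Of the 4 other tested genes with an ERSE (Pan2, Adcy3, Alg12 and Hnrnpa3), none passed in edgeR (median log2 change of -0.67). A match is a count of letters in a window and not a measured binding site.

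The windows of Canx, which did not pass, and of Sdf2l1, which rose most, are shown over the 250 bases before the start for comparison, each on the gene's strand (minus), with every CCAAT or CCACG and their complements in capitals. In Canx (chr11:50325674-50325923) a CCAAT and a CCACG are 9 bases apart. In Sdf2l1 (chr16:17132384-17132633) 3 of each motif are present and none at that spacing.
Canx: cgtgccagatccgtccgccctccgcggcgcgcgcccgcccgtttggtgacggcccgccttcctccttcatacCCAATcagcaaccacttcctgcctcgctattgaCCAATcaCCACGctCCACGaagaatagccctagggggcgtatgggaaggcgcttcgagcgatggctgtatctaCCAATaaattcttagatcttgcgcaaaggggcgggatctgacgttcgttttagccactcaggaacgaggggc
Sdf2l1: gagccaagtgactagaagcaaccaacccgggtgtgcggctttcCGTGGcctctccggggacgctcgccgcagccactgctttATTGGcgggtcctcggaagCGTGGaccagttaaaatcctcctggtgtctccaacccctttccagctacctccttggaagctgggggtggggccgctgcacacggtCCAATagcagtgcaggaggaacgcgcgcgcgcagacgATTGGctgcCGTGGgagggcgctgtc

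The change of these genes moved with transcript length, as it did over the whole table. Spearman's rho between log2 change and length of the longest transcript was -0.494 over the 31 genes and -0.366 over 11712 tested genes, a description across genes, which share the same libraries. Tested genes were put in 5 equal groups by length. From the shortest to the longest group, 31.1%, 11.2%, 6.75%, 4.91% and 2.35% of all genes were higher and 3.41%, 6.58%, 8.24%, 10.5% and 12.2% were lower. Of the 6 members in the shortest group 4 rose (Sdf2l1, Fkbp2, Sec61b and Ppib), and of the 9 in the next group 4 rose (Xbp1, Sec61g, Pdia6 and Manf). None of the 5 members of the middle group passed, and Derl2 was the 1 of 5 that rose in the next. Ern1 and Sel1l lie in the longest group, as does Ssr1, which has the longest transcript of the 31 genes and rose.

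**Figure D4:**
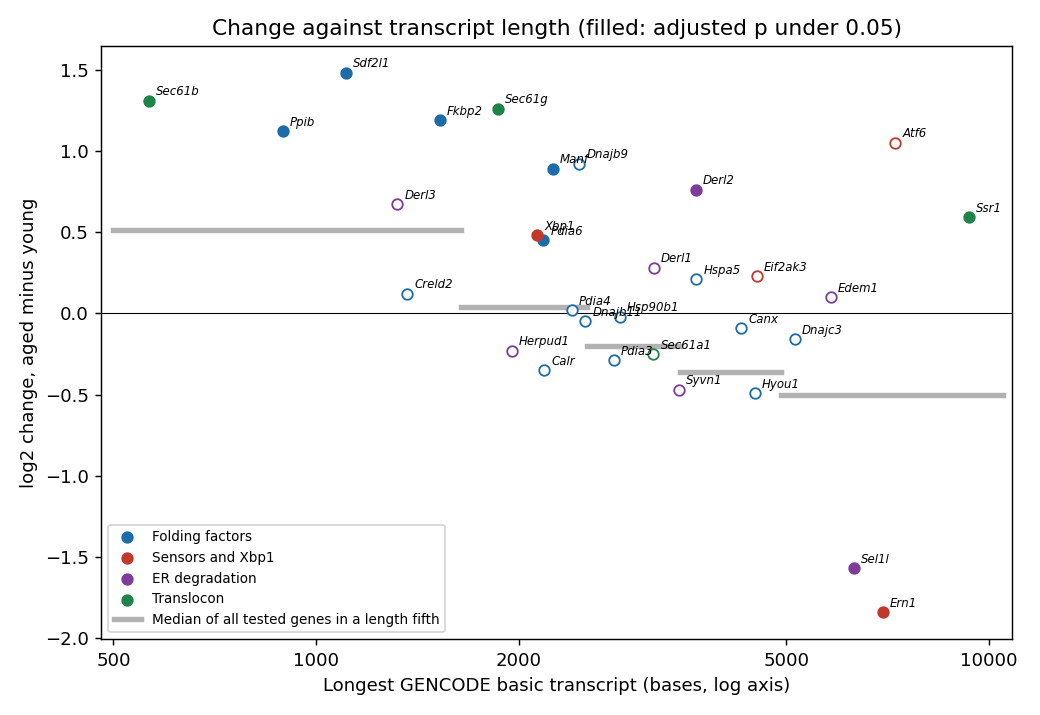
Log2 change, aged minus young, against the longest GENCODE basic transcript (bases, log axis) of each gene, coloured by role and filled where the adjusted p was under 0.05; grey bars give the median of all tested genes in each of 5 length groups, the outer ones drawn to the edge of the plot. The bars step down from 0.51 to -0.50, with Sdf2l1, Sec61b and Ppib above the first and Sel1l and Ern1 below the last.

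When length and GC content were fitted out of each library, Sdf2l1 rose by 0.69 (edgeR adjusted p = 0.00292), Manf by 0.78 (0.00173), Ssr1 by 1.11 (0.000225) and Derl2 by 0.85 (0.00784), while the rises of Fkbp2, Sec61b and Ppib shrank to 0.46 (0.0339), 0.33 (0.0387) and 0.32 (0.0172). Sel1l fell by 1.07 (0.014). The calls of Xbp1 (0.27, adjusted p = 0.102), Sec61g (0.95, 0.0576) and Ern1 (-1.33, 0.0566) were lost. Hspa5 (0.44, adjusted p = 0.0245), Derl1 (0.46, 0.0291) and Edem1 (0.56, 0.0179) then passed as higher and Creld2 (-0.48, 0.0249) as lower, for 11 higher and 2 lower in all. In that fit 7.13% of all genes were higher and 9.81% lower.

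Directions also depend on the scaling. When libraries were scaled by their totals alone, the median log2 change over all tested genes moved from -0.101 to -0.517, and 5 of the 31 genes were higher and 10 lower (6.07% and 20.2% of all tested genes). Sdf2l1, Ppib, Fkbp2, Manf and Sec61b were still higher, at 1.06, 0.70, 0.77, 0.47 and 0.89, and Sel1l and Ern1 lower, at -1.99 and -2.25. Hsp90b1 (-0.43), Dnajc3 (-0.57), Pdia3 (-0.71), Calr (-0.78), Canx (-0.51), Herpud1 (-0.65), Syvn1 (-0.89) and Sec61a1 (-0.67) then passed as lower, and Hspa5 turned to -0.21 without passing. Pdia6 (0.03), Xbp1 (0.06), Derl2 (0.34), Ssr1 (0.18) and Sec61g (0.85) no longer passed.

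**Figure D5:**
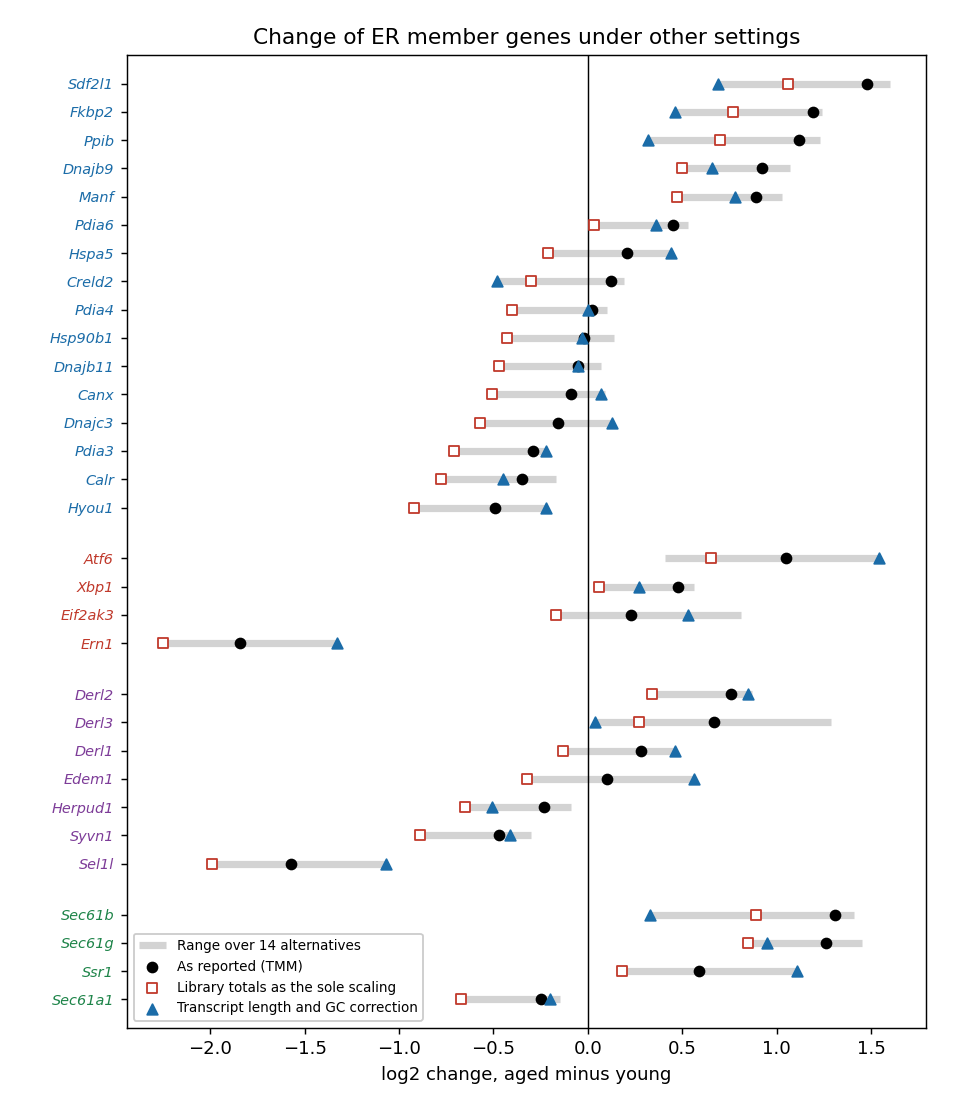
Log2 change of each gene as reported (black circles), scaled by library totals alone (open red squares) and after the length and GC correction (blue triangles); grey bars span all 14 alternatives. Sdf2l1 stays between 0.69 and 1.6 and Sel1l between -1.99 and -1.07, while Hspa5 spans 0.

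Other genes of the same pathways were taken from lists by function. Of 12 genes of the PERK and ATF4 arm 5 rose and 1 fell (median log2 change of 0.64). Atf4, the factor made when PERK slows translation, rose by 1.03, Atf3 by 2.06 and Cebpb by 1.24, while Sesn2, an ATF4 target, fell by 1.73. Exons of Cebpb overlap the opposite-strand gene Tmem189 over 20.7% of their length, so its counts are uncertain where strand was not used. Ddit3 (CHOP), a factor of prolonged stress, rose by 0.91 ± 0.24 (SE; edgeR adjusted p = 0.0234), from 29.1 ± 4.95 to 54.8 ± 4.88 CPM (SD, n = 3 each); it was named after its value was seen. Of 11 partners of ATF6 and IRE1 and related factors, 2 rose and none fell (median of -0.25). Nfyb, a subunit of NF-Y, rose by 0.80 and Traf2, an adaptor of IRE1, by 0.70. The other NF-Y subunit genes, Nfya (-0.6) and Nfyc (-0.59), had values below 0 and did not pass.

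Among further folding genes, 3 of 15 disulfide isomerases and oxidases rose and none fell (median of 0.05). Ero1l, the oxidase that recharges disulfide isomerases, rose most, from 726.7 ± 21.4 to 2068 ± 283.5 CPM (SD, n = 3 each; log2 change of 1.51 ± 0.13, SE; edgeR adjusted p = 2.33e-05), with Txndc12 at 0.84 and Erp29, whose exons overlap Naa25 over 26.4% of their length, at 0.60. Of 9 further prolyl isomerases and collagen-type hydroxylases 5 rose and none fell (median of 0.82), with P4ha2, Plod2 and Fkbp11 at 2.74, 1.46 and 1.19. Of 12 other chaperones Cnpy2 rose (0.59) and Sec63, the J-domain partner of BiP at the channel, fell by 1.12 (median of 0.00). Of 11 genes of glycan trimming Lman2 rose (0.66) and Os9, a lectin of the HRD1 complex, fell by 0.94 (median of -0.43).

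Oligosaccharyltransferase genes, which attach glycans to entering proteins, included 6 of 12 that rose and none that fell (median of 0.44). Krtcap2, Ost4 and Dad1, small subunits, rose by 1.44, 1.33 and 1.24, with exon overlap of 15.7% for Krtcap2 and 53.2% for Ost4. Of 19 further genes of the translocon, signal peptidase and signal recognition particle 7 rose and 3 fell (median of 0.50), with Ssr2, Ssr3 and Sec11a at 1.18, 0.85 and 0.73. The genes that fell were Srp68 (-1.1), Srp72 (-0.60) and Srpr (-0.83), parts of the recognition particle and its receptor.

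Of 21 further ERAD genes 3 rose and 4 fell (median of -0.23). Selk, Tor1a and Ube2j1 rose by 1.06, 0.82 and 0.70, and Vcp, the ATPase that pulls substrates out of the membrane, Nploc4, its cofactor, and Ubxn4 fell by 1.31, 0.97 and 0.87. Of the 75-base windows of Vcp, 59.7% also occur in another gene's transcripts, so its counts are uncertain. Of 18 genes of ER to Golgi transport 5 rose and 4 fell (median of 0.26), with Kdelr3, a receptor that returns ER proteins, Sec22b and Sec13 at 1.58, 0.73 and 0.55, and the coat genes Sec24c, Sec31a and Copa at -1.58, -1.32 and -1.30. All these counts were read against 11.2% higher and 8.14% lower among all tested genes, and the lists were not tested as sets. Their values are given without the length and GC correction. By length, 31.1% of the shortest group of tested genes and 2.35% of the longest were higher. Ost4, Krtcap2 and Ssr2, which rose, have longest transcripts of 1144, 1172 and 1189 bases. Copa, Sec24c and Sec31a, which fell, have 4622, 4461 and 4228 bases. Ero1l, Plod2 and Dad1 rose with 4418, 3663 and 3491 bases.

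Markers of plasma cells, which carry much ER, were checked because they could bear on these genes. The 7 markers summed to 68.1 to 79.0 CPM in the young and 165.0 to 249.0 CPM in the aged libraries, with Jchain alone at 12.6 ± 5.04 CPM in the young and 168.6 ± 18.3 CPM in the aged libraries (SD, n = 3 each). Of the 5 tested genes of that list, 1 was higher and 4 did not pass in edgeR, with a median log2 change of -0.29. Tnfrsf17 had 0 counts in every library, and Mzb1 averaged 0.296 CPM in the young libraries, from 1 of them, and had 0 counts in the aged ones. The macrophage and microglia markers summed to at most 61.5 CPM in the young libraries and to 105.0 to 156.0 CPM in the aged ones, with P2ry12 and Tmem119 higher, Adgre1 lower, and Csf1r and C1qa at 0 counts in every library. T cell markers summed to 18.4 to 25.2 CPM in the young libraries and 26.2 to 34.4 CPM in the aged ones, with Cd3e, Cd4 and Cd8a at 0 counts in every library. B cell markers summed to 13.7 to 22.9 CPM in the young libraries and 41.0 to 62.2 CPM in the aged ones. Both tested genes of that list, Cd79b and Ebf1, were higher, Ebf1 from 0 counts in every young library, while Ms4a1, Cd79a and Pax5 had 0 counts in every library. NK cell and ILC1 markers summed to 4.17 to 5.42 and 10.6 to 24.2 CPM, with Prf1 higher as 1 of 2 tested genes and Ncr1, Eomes, Tbx21, Klrb1c and Klra8 at 0 counts in every library. Of the markers of stroma, endothelium and neural cells, which summed to 85.2 to 148.0 and 144.0 to 182.0 CPM, Pecam1 was higher and Pdgfrb lower, and no tested gene of the T cell, ILC3, mast cell or dendritic cell lists passed in edgeR. The part of other cells in the changes of the ER genes was not tested.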

How the data were processed

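RNA was measured by single-end 75-base sequencing in 6 libraries, grouped by the age in their titles. The authors deposited raw counts per gene symbol, without normalization; the submitters' processing notes list build mm10 and the tools STAR 2.5.3a, Cufflinks 2.0, bcl2fastq 2.20.0.422, DESeq2 1.1 and FastQC 1.0.0, without their roles. How reads were counted, with which annotation and whether by strand, is not given in the sources used here, so reads of overlapping genes cannot be assigned.

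The test was edgeR 4.0.16 in R 4.3.3 (filterByExpr, minimum count 10, minimum total 15; TMM; glmQLFit and glmQLFTest). The SE is the size of the log2 change divided by the root of F. Symbols turned into dates (27 rows, 0.153% of counts) stayed in and are not named. Length, GC content, exon overlap and shared windows come from GENCODE vM21 (GRCm38), with a length for 99.2% of tested genes; the longest basic transcript may not be the one expressed. Protein ends were planned but not analysed here. Selenof was not matched.

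The members and lists were chosen with earlier results of these data known. All members are named; of each pathway list, up to 3 genes per direction with the smallest p that passed at a mean of at least 1 CPM. Alternatives used DESeq2 1.42.0, limma 3.58.1 (voom), other scalings and filters, each library left out, a replicate block, and a length and GC correction (mgcv 1.9.3). The edgeR test was run on simulated counts in which 200 genes changed, in both directions. That simulation held no trend with transcript length and no shift of most genes between groups, so it does not cover those features.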

Additional observations from a re-analysis of the deposited data

How the results depend on the processing

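With library totals as the sole scaling 717 genes were higher and 2381 lower in all, the 31 genes gave 5 higher and 10 lower, and the medians were -0.35 for folding, -0.06 for sensing, -0.32 for ERAD and 0.51 for translocon genes; Hspa5 (-0.21), Pdia4 (-0.40), Creld2 (-0.30), Eif2ak3 (-0.17), Derl1 (-0.13) and Edem1 (-0.32) changed sign. After the length and GC correction 842 genes were higher and the translocon median was 0.64, with sign changes for Dnajc3 (0.13), Creld2 (-0.48) and Canx (0.07). Hsp90b1 was at 0.01 with DESeq2 and with RLE size factors. Leaving out 1 library gave 432 to 887 genes lower, 6 to 10 of the 31 genes higher (6 without aged library 2) and 1 to 3 lower (1 without young library 2), a folding median of 0.06 to 0.15 and a translocon median of 0.83 to 0.98. Over these fits Dnajb11 ranged from -0.12 to 0.07, Hsp90b1 from -0.07 to 0.14, Canx from -0.23 to 0.09 and Pdia4 from -0.07 to 0.10. Sdf2l1, Ppib, Fkbp2, Manf, Sec61b and Sel1l kept their direction and an adjusted p under 0.05 in all 14 alternatives. The cause of these changes was not tested.

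Deviations of same-numbered libraries of the groups had correlations of 0.020, 0.009 and 0.041, and those of other pairs ran from -0.027 to 0.012. With 3 libraries per group, such values cannot exclude a shared day of sorting, culture or preparation, and the labels name none. The names of all count columns end in the same date-like string of digits, whose meaning is not stated. With the replicate block, 1208 genes were higher and 800 lower, and the 31 genes again gave 10 higher and 2 lower, with no call of a single member changed.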
